A study of Mus musculus with 12 samples.

Results

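Of the 38926 gene symbols counted in mouse liver, 36 were examined here, namely genes of fatty acid oxidation and known targets of peroxisome proliferator-activated receptor alpha (PPARα), picked by symbol. All 36 had at least 10 reads in at least 3 of the 12 libraries, as 14532 symbols did, and all 36 were among the 14488 genes tested. By role they fell into 16 genes of mitochondrial β-oxidation, 5 of peroxisomal β-oxidation, 3 ω-hydroxylases, 1 enzyme of ketone body metabolism, 4 acyl-CoA thioesterases and 7 other targets of PPARα.

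The livers came from male mice aged 12 weeks on a 129Ola/C57BL6 background, kept in a light-dark cycle with free access to food. Tissue was taken at ZT8, in the light phase, or at ZT20, in the dark phase, where ZT counts hours from lights on. At each time there were 3 wild-type libraries and 3 libraries labelled Rev KO, from mice that lack Rev-erbα (gene Nr1d1), bred from heterozygous pairs and with no restriction to a tissue described. Each is a poly(A) RNA library of bulk liver, in which fewer cells of a type and less RNA per cell cannot be told apart. The labels number replicates without saying that each came from its own animal, so p-values measure the spread between these samples, which are called mice below.

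PPARα is a nuclear receptor that binds fatty acids and their derivatives and, paired with RXR, switches on genes for burning fat when food is scarce. Mitochondria take up long-chain fatty acids through the carnitine shuttle and shorten them by β-oxidation, peroxisomes shorten very long chains and the products of ω-oxidation, and the liver turns the resulting acetyl-CoA into ketone bodies. REV-ERBα is a nuclear receptor of the circadian clock that represses transcription, and hepatic fat metabolism follows the daily cycle of feeding and clock activity.

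Levels are given in CPM, a gene's reads relative to all reads counted on genes in that library, scaled by the trimmed mean of M-values. Each group holds 3 mice. Differences are log2 fold changes ± SE from 1 edgeR quasi-likelihood fit over all 12 libraries, with p-values adjusted by the Benjamini-Hochberg method over all genes tested and a threshold of 0.05. Between 17641809 and 26060192 reads were counted on genes per library, so that 3 reads corresponded to 0.117 to 0.167 CPM. The reads on Nr1d1 itself did not separate the genotypes. At ZT8 it had 129, 96.2 and 75.3 CPM in wild type and 62.99, 71.9 and 80.6 CPM in the mice labelled Rev KO, and the groups overlapped (-0.48 ± 0.18, adjusted p = 0.143, edgeR). Counts sum the whole gene, the deleted stretch is not given in the sources used here, and the count therefore does not check the genotype labels, on which every direction below rests. Thra, which overlaps Nr1d1 on the opposite strand and was counted without strand, was lower in the mice labelled Rev KO at ZT8 (-1.26 ± 0.14, adjusted p = 6.17e-05, edgeR).

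A pair of wild-type libraries stood apart. Of 8 acute-phase genes, the summed level was 2628, 18183 and 23262 CPM in wild-type mice 1, 2 and 3 at ZT8, against 2170 to 2340 CPM in the Rev KO mice at ZT8 and 2852 to 3209 CPM at ZT20. The same mice 2 and 3 also had more alignments of reads that align to several places. These alignments, which are not a number of reads, were 2.89 and 3.28 per counted read against 1.76 in mouse 1. The Rev KO mice at ZT8 lay between, at 2.29 to 2.72. Calls between genotypes at ZT8 are therefore given with and without wild-type mice 2 and 3, and the part of the acute-phase state in them was not tested beyond that. Hepatocyte markers were high, as the tissue label says: 7 of 8 were rows of the files and summed to 60773 to 114682 CPM per library. Of 6 markers of macrophages, 5 were rows of the files and summed to 204 to 337 CPM. The highest sums of all libraries, 283 and 337 CPM, were those of wild-type ZT8 mice 2 and 3. Mouse 1 had 233 CPM and the Rev KO mice at ZT8 204 to 247 CPM. Of these markers, 1 was called lower in the interaction and 1 lower at ZT20 in wild type. The 4 markers of neutrophils summed to at most 6.75 CPM, with Ly6g at 0 in every library. At ZT8, 2 small lists moved with genotype. The 4 bile duct markers summed to 4.83 to 7.44 CPM in wild type and 9.97 to 15.5 CPM in the Rev KO mice, mostly from Sox9. The 5 exocrine pancreas markers summed to 26.6 to 29.5 and 44.9 to 60.6 CPM, nearly all from Cela1, with Cpa1 and Prss1 at 0. The part of these marker lists in the results at ZT8 was not tested.

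Per kilobase of exon, which allows levels of different genes to be compared, the 36 genes ranged from 0.719 to 6733 CPM per kb. Fabp1, the liver fatty acid-binding protein, had the highest mean over the 12 mice, ahead of the mitochondrial thiolase Acaa2 with 595.6 CPM per kb and Cyp4a12a with 229.5 CPM per kb. The lowest level per kb was that of Acot3, and Acot4 had 1.53 CPM per kb, Fgf21 1.73 CPM per kb and Pdk4 4.31 CPM per kb. The 4 genes with the largest genotype differences at ZT8 among those past the threshold were thus all low in this order.

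At ZT8, 10 of the 36 genes (27.8%) passed the threshold between genotypes, where 8.45% of all tested genes did. Of these, 4 were higher in the Rev KO mice, against 4.4% of all genes, and 6 were lower, against 4.04%. At ZT20 only Fgf21 passed, lower in the Rev KO mice (1 of 36, 2.78%), where 3.63% of all genes did, 2.09% higher and 1.54% lower. The interaction, which tests whether the genotype difference at ZT8 differs from that at ZT20, was passed by 3 of 36 (8.33%), namely Fgf21, Pdk4 and Eci2, against 5.88% of all genes (3.05% higher and 2.83% lower). The 36 genes had no common direction: their median log2 fold change was 0.020 at ZT8, beside 0.0018 over all genes, and -0.00017 at ZT20, beside -0.00068.

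Most of the 10 differences at ZT8 were small. Fgf21 was 7.83-fold and Pdk4 3.47-fold higher, and Acot3 was 8.703-fold and Acot4 1.72-fold lower in the Rev KO mice, while the other 6 differed by 1.23-fold to 1.36-fold. In all 10 the mice of the genotypes did not overlap, and the same held for 25.6% of all genes (13.2% higher and 12.3% lower). With wild-type ZT8 mice 2 and 3 left out together, 4 of 36 genes (11.1%) passed, namely Fgf21, Pdk4, Acot3 and Acot4, against 2.29% of all genes in that fit. Leaving out wild-type mouse 2 alone or Rev KO mouse 2 alone left 4 calls at ZT8, against 3.68% and 4.12% of all genes. Leaving out wild-type mouse 3 alone or Rev KO mouse 1 alone left 6 (16.7%), against 5.09% and 5.98% of all genes. Without wild-type mouse 1 there were 13 calls (36.1%), against 12.3% of all genes.

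**Figure D1:**
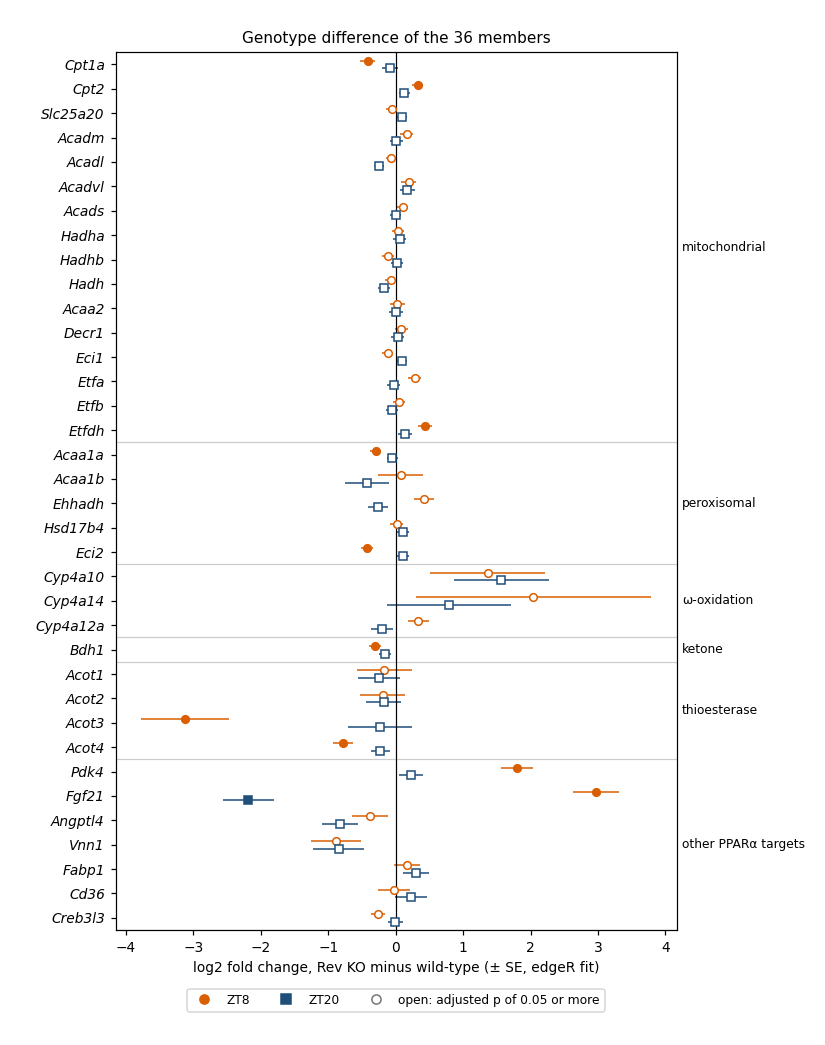
Log2 fold change of Rev KO against wild type for the 36 genes, grouped by role (points: edgeR estimate, bars: ± SE; 3 mice per group; orange circles ZT8, blue squares ZT20; filled: adjusted p under 0.05). Most genes lie close to 0 at both times, Fgf21 lies at 2.97 at ZT8 and -2.19 at ZT20, and Acot3 lies at -3.12 at ZT8.

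Among the mitochondrial genes, Cpt1a and Cpt2 of the carnitine shuttle were called in opposite directions at ZT8. The carnitine carrier Slc25a20 did not pass there (-0.06, adjusted p = 0.768, DESeq2). Cpt1a encodes carnitine palmitoyltransferase 1A, which controls the entry of long-chain fatty acids into mitochondria. At ZT8 it had 611, 719 and 754 CPM in wild type and 443, 510.5 and 609 CPM in the Rev KO mice, so that the highest Rev KO mouse lay just below the lowest wild-type mouse. The difference was -0.42 ± 0.12 (1.33-fold lower, adjusted p = 0.0384, edgeR), whereas at ZT20 the groups overlapped with 252, 248 and 266 CPM and 222, 239 and 265 CPM (-0.08 ± 0.12, adjusted p = 0.847). The ZT8 call was lost without wild-type mice 2 and 3 (-0.24, adjusted p = 0.565). Leaving out single libraries ended it in 7 of 12 fits.

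Cpt2 encodes the inner-membrane enzyme that completes the shuttle. It had 116, 114 and 111 CPM in wild type and 129.6, 146 and 152 CPM in the Rev KO mice at ZT8. The 3 wild-type mice lay close together and below all Rev KO mice (0.33 ± 0.08, 1.25-fold higher, adjusted p = 0.0243, edgeR). The ZT20 values of 182, 163 and 156 CPM and 197, 172 and 179 CPM overlapped (adjusted p = 0.53). Etfdh, the dehydrogenase that passes electrons from β-oxidation to ubiquinone, had 292, 258 and 244 CPM in wild type and 329, 402 and 347 CPM in the Rev KO mice at ZT8 (0.44 ± 0.10, 1.36-fold higher, adjusted p = 0.0157, edgeR). All Rev KO mice were above all wild-type mice there, and the groups overlapped at ZT20, with 330.3, 303 and 275 CPM against 365, 324 and 313 CPM (adjusted p = 0.602). Without wild-type mice 2 and 3 the ZT8 values were 0.29 for Cpt2 (adjusted p = 0.328) and 0.30 for Etfdh (adjusted p = 0.396). Singly, leaving out wild-type mouse 2, wild-type mouse 3 or Rev KO mouse 2 ended the call of both genes (adjusted p from 0.0683 to 0.0944). Leaving out Rev KO mouse 3 ended that of Cpt2 (adjusted p = 0.0714).

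The other 13 mitochondrial genes lay between -0.12 (Eci1) and 0.28 (Etfa, adjusted p = 0.083, edgeR) at ZT8. They include the carnitine carrier Slc25a20, the acyl-CoA dehydrogenases Acads, Acadm, Acadl and Acadvl, the trifunctional protein subunits Hadha and Hadhb, Hadh, Acaa2, the isomerase and reductase Eci1 and Decr1 for unsaturated chains, and the electron carriers Etfa and Etfb. Etfa passed at ZT8 without wild-type mouse 1 (0.38, adjusted p = 0.0129, edgeR) or without Rev KO mouse 3 (0.35, adjusted p = 0.0414). Without wild-type mice 2 and 3 its ZT8 value was 0.094. At ZT20 none of the 16 passed in edgeR, with 1 at an unadjusted p under 0.05 and 1 in DESeq2. This gene was Acadl, with 221, 213 and 203 CPM in wild type and 188, 172 and 177 CPM in the Rev KO mice and no overlap (-0.25 ± 0.07, adjusted p = 0.071 in edgeR). None passed the interaction in edgeR, with 1 at an unadjusted p under 0.05 and 0 in DESeq2. Summed over the 16 genes, the level was 3965 to 4423 CPM in wild type and 3948 to 4424 CPM in the Rev KO mice at ZT8, and 4190 to 4522 CPM against 4162 to 4460 CPM at ZT20. Shared sequence limits a few of these genes: of the 75-base windows, 39.6% in Etfb also lie in Gm45233, 19.5% in Acadvl also lie in Dvl2, and 16.7% in Hadhb also lie in Gm13910, Gm9108 or other genes.

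Of the 5 peroxisomal genes, 2 were lower in the Rev KO mice at ZT8 and none passed at ZT20 (edgeR, 0 at an unadjusted p under 0.05 and 0 in DESeq2). Eci2, an enoyl-CoA isomerase that prepares unsaturated chains for β-oxidation, had 138, 158 and 149 CPM in wild type and 97.5, 115 and 120.0 CPM in the Rev KO mice at ZT8. Every Rev KO mouse was below every wild-type mouse (-0.42 ± 0.09, 1.34-fold lower, adjusted p = 0.00742, edgeR). At ZT20 it had 82.01, 87.1 and 94.7 CPM and 94.98, 90.2 and 100.3 CPM, with overlap (0.11 ± 0.09, adjusted p = 0.626). The genotype difference changed between times, with an interaction of -0.53 ± 0.12 (adjusted p = 0.0176, edgeR). Without wild-type ZT8 mice 2 and 3, neither the ZT8 difference (-0.33, adjusted p = 0.229) nor the interaction (-0.44, adjusted p = 0.15) passed. Without wild-type ZT8 mouse 2 alone both were also lost (adjusted p = 0.0509 and 0.0622), and without wild-type ZT20 mouse 1 or 2 the interaction was lost (adjusted p = 0.0548 and 0.0558).

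Acaa1a, a peroxisomal thiolase, had 173, 178 and 161 CPM in wild type and 125, 143 and 149 CPM in the Rev KO mice at ZT8 and did not overlap (-0.30 ± 0.08, 1.23-fold lower, adjusted p = 0.0257, edgeR). The ZT20 values of 147, 140.4 and 147 CPM and 139.9, 136 and 145 CPM overlapped. The ZT8 call was lost without wild-type mice 2 and 3 (-0.32, adjusted p = 0.169) and without wild-type mouse 2, Rev KO mouse 1 or Rev KO mouse 2 alone (adjusted p = 0.127, 0.0889 and 0.0679). Its near copy Acaa1b spread widely at ZT8, with 302, 219 and 131 CPM in wild type and 188, 225 and 275 CPM in the Rev KO mice (0.07 ± 0.33, adjusted p = 0.92, edgeR). Of its 75-base windows, 32.3% lie in Acaa1a or Dlec1 as well. Ehhadh, the bifunctional enzyme of inducible peroxisomal β-oxidation, had 187, 138 and 118 CPM and 172, 186 and 235 CPM at ZT8, with overlap (0.42 ± 0.15, adjusted p = 0.109). Without wild-type ZT8 mouse 1 this difference was 0.62 and passed (adjusted p = 0.00371, edgeR), and without wild-type ZT8 mice 2 and 3 it was 0.074 (adjusted p = 0.9). Hsd17b4, the bifunctional enzyme for branched and very long chains, stayed at 0.01 ± 0.10 at ZT8 and 0.11 ± 0.10 at ZT20 (adjusted p = 0.951 and 0.699, edgeR).

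The 3 ω-hydroxylases, which oxidise the methyl end of fatty acids, did not pass between genotypes at either time in edgeR (0 at an unadjusted p under 0.05 and 0 in DESeq2), and Cyp4a10 and Cyp4a14 varied strongly between mice of 1 group. Cyp4a10 had 5.45, 4.48 and 3.46 CPM in wild type and 4.05, 8.44 and 22.04 CPM in the Rev KO mice at ZT8, and 18.1, 25.3 and 41.1 CPM and 166, 48.2 and 37.4 CPM at ZT20. The log2 differences of 1.36 ± 0.85 and 1.57 ± 0.70 were not distinguishable from the spread between mice (adjusted p = 0.387 and 0.358, edgeR). Cyp4a14 had 0.756, 0.648 and 0.356 CPM in wild type and 0.571, 1.78 and 4.99 CPM in the Rev KO mice at ZT8, and 10.3, 15.4 and 40.6 CPM and 90.6, 16.3 and 8.14 CPM at ZT20. Within the Rev KO mice at ZT20 its highest value was 11.1 times its lowest, and in all 4 groups Cyp4a10 and Cyp4a14 put the 3 mice in the same order. Cyp4a12a, a hydroxylase of male mouse liver, had 569, 385 and 326 CPM in wild type and 583, 527 and 510.1 CPM in the Rev KO mice at ZT8 (0.34 ± 0.16, adjusted p = 0.227), with -0.20 ± 0.16 at ZT20 (adjusted p = 0.646). Its ZT8 difference turned on which wild-type mice were kept: it was 0.60 and passed without mouse 1 (adjusted p = 0.00301, edgeR), and it was -0.081 without mice 2 and 3 (adjusted p = 0.875). It shares 40.8% of its 75-base windows with Cyp4a12b, and Cyp4a10 shares 18.4% with Cyp4a31 and Cyp4a32, while Cyp4a14 shares none.

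Bdh1, the mitochondrial dehydrogenase that interconverts acetoacetate and β-hydroxybutyrate, had 343, 358 and 326 CPM in wild type and 252, 285 and 291 CPM in the Rev KO mice at ZT8. All Rev KO mice were lower (-0.31 ± 0.09, 1.24-fold lower, adjusted p = 0.0426, edgeR). At ZT20 the groups overlapped with 227, 206 and 216 CPM and 216, 187 and 178 CPM (adjusted p = 0.45). The ZT8 value lay close to the threshold, and the call was lost without wild-type mice 2 and 3 (-0.32, adjusted p = 0.263). Leaving out single libraries ended it in 7 of 12 fits.

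The 4 thioesterases, which split acyl-CoA into free fatty acid and CoA, sit in a row on chromosome 12 of GRCm38 (from 83987861 to 84060402, in the order Acot2, Acot1, Acot4, Acot3). Acot3 and Acot4, both peroxisomal, were lower in the Rev KO mice at ZT8, while the cytosolic Acot1 and mitochondrial Acot2 stood at -0.17 ± 0.40 and -0.19 ± 0.33 (adjusted p = 0.852 and 0.78, edgeR). At ZT8 Acot3 had 4.89, 3.19 and 1.88 CPM in wild type and 0.312, 0.389 and 0.441 CPM in the Rev KO mice, the latter from 6, 7 and 9 reads, against a floor of 3 reads. All Rev KO mice were far below the lowest wild-type mouse, and the difference was -3.12 ± 0.65 (8.703-fold lower, adjusted p = 0.0153, edgeR). At ZT20 it had 3.63, 2.57 and 3.802 CPM and 1.13, 2.18 and 5.25 CPM, where the Rev KO mice spread across the wild-type range and beyond it (-0.23 ± 0.48, adjusted p = 0.895). The interaction missed the threshold in edgeR (-2.89 ± 0.83, adjusted p = 0.0718) and passed there without Rev KO ZT20 mouse 1 (-3.27, adjusted p = 0.0127). In DESeq2 it passed with all libraries (-2.90, adjusted p = 0.001).

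Acot4 had 12.5, 11.01 and 9.51 CPM in wild type and 7.27, 5.000 and 6.905 CPM in the Rev KO mice at ZT8, without overlap (-0.78 ± 0.15, 1.72-fold lower, adjusted p = 0.0053, edgeR). The groups overlapped at ZT20, with 12.05, 12.2 and 13.5 CPM and 9.02, 11.1 and 12.2 CPM (-0.23 ± 0.14, adjusted p = 0.53). Both ZT8 calls held without wild-type mice 2 and 3, at -3.67 for Acot3 (adjusted p = 0.0399) and -0.96 for Acot4 (adjusted p = 0.0171, edgeR). Acot4 passed in all 12 fits that left out 1 library, whereas Acot3 did not pass without Rev KO ZT8 mouse 1 (-3.00, adjusted p = 0.0689) or mouse 2 (-3.13, adjusted p = 0.0666). Of the 75-base windows, 18.1% in Acot3 and 9.9% in Acot4 also lie in other genes, among them Gm49366, which overlaps both on the same strand. Reads that overlap more than 1 gene are left out by the counting mode used.

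Among the 7 other targets, Fgf21 and Pdk4 changed and the remaining 5 did not pass between genotypes in edgeR with all libraries. Fgf21 (chr7:45613886-45615490, minus strand) encodes a fasting hormone of the liver that PPARα induces. At ZT8 it had 0.597, 0.598 and 0.305 CPM in wild type and 3.53, 4.17 and 4.31 CPM in the Rev KO mice, from 15, 12 and 6 and 68, 75 and 88 reads. At ZT20 it had 2.37, 1.64 and 1.16 CPM in wild type and 0.2099, 0.623 and 0.267 CPM in the Rev KO mice, from 51, 37 and 26 and 5, 16 and 6 reads. The genotypes separated at both times, in opposite directions: the Rev KO mice were all higher at ZT8 (2.97 ± 0.34, 7.83-fold, adjusted p = 8.26e-05, edgeR) and all lower at ZT20 (-2.19 ± 0.38, 4.56-fold lower, adjusted p = 0.00334). The interaction was 5.16 ± 0.51 (adjusted p = 2.05e-05). Each of these 3 calls held whichever library was left out, although without Rev KO ZT20 mouse 2 the ZT20 difference was -2.83 and the interaction 5.80. Without wild-type ZT8 mice 2 and 3 the ZT8 difference was 2.73 (adjusted p = 0.00791), the ZT20 difference -2.18 (adjusted p = 0.00339) and the interaction 4.91 (adjusted p = 0.000421).

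Pdk4 (chr6:5483351-5496309, minus strand) encodes a kinase that shuts off pyruvate dehydrogenase and so spares glucose while fat is burned. It had 1.67, 1.84 and 2.54 CPM in wild type and 6.91, 6.72 and 7.25 CPM in the Rev KO mice at ZT8. The gap was far wider than the spread within either group (1.80 ± 0.24, 3.47-fold higher, adjusted p = 0.000572, edgeR). The ZT20 values were 24.4, 25.6 and 21.4 CPM and 18.9, 33.6 and 30.99 CPM, and the Rev KO mice lay on both sides of the wild-type mice (0.23 ± 0.18, adjusted p = 0.635). The interaction was 1.57 ± 0.30 (adjusted p = 0.00754). Both calls held in each fit with 1 library left out. They also held without wild-type ZT8 mice 2 and 3 (2.05, adjusted p = 0.0179, and 1.82, adjusted p = 0.0433, edgeR).

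**Figure D2:**
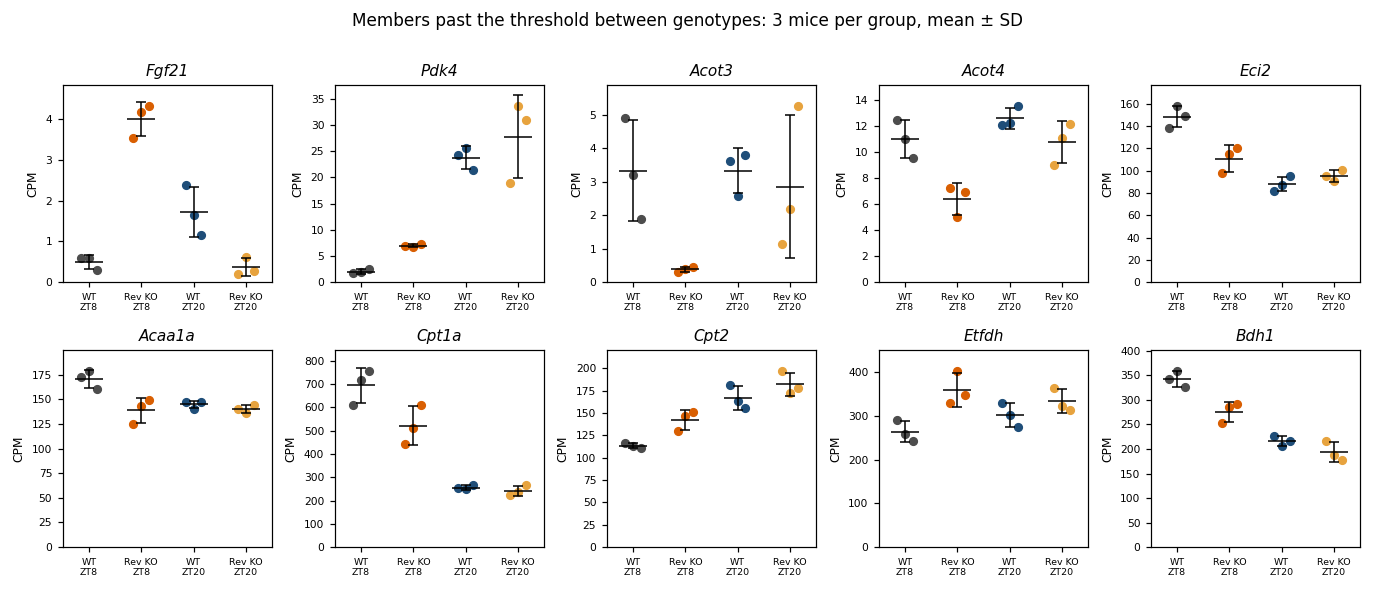
CPM of the 10 genes past the threshold between genotypes (points: single mice in the order of their replicate numbers; bars: mean ± SD, n = 3 per group; y axes start at 0). The genotypes separate at ZT8 in each panel, and only in the Fgf21 panel do they also separate at ZT20, with 4.002 ± 0.414 CPM and 0.367 ± 0.224 CPM in the Rev KO mice at ZT8 and ZT20.

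The remaining targets were Angptl4, an inhibitor of lipoprotein lipase, Vnn1, a pantetheinase, Fabp1, the fatty acid transporter Cd36 and the membrane-bound transcription factor Creb3l3. At ZT8 they lay between -0.88 (Vnn1, adjusted p = 0.192) and 0.17 (Fabp1, adjusted p = 0.646), and at ZT20 between -0.85 (Vnn1, adjusted p = 0.341) and 0.31 (Fabp1, adjusted p = 0.516, edgeR). Vnn1 had 7.88, 10.5 and 13.98 CPM in wild type and 3.06, 5.56 and 8.77 CPM in the Rev KO mice at ZT8, and passed there in DESeq2 but not in edgeR. Creb3l3 did not pass at ZT8 with all libraries (adjusted p = 0.161, edgeR). It passed without Rev KO ZT8 mouse 3 (-0.38, adjusted p = 0.0383, edgeR). Over the 36 genes the mice did not overlap in 10 at ZT8 and in 6 (16.7%) at ZT20, where 22.5% of all genes did not overlap (11.2% higher and 11.3% lower).

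Sequence upstream of the start is shown for the 4 genes with the largest genotype differences at ZT8 among those past the threshold. It is also shown for Fabp1, the only 1 of the 28 members searched with a PPAR-type direct repeat in the window. The sequences are from RefSeq on GRCm38.p6, read 5′ to 3′ on the strand of the gene, and end before the first annotated exon. For Pdk4 and Fabp1 bases that lie in an annotated exon were left off. Capitals mark a match, on either strand, to the E-box CACGTG, to the nuclear receptor half-site AGGTCA, or to the relaxed direct repeat described next. Fgf21 lies on the minus strand at chr7:45615491-45615740, Pdk4 on the minus strand at chr6:5496310-5496528, Acot3 on the plus strand at chr12:84051894-84052143, Acot4 on the plus strand at chr12:84038129-84038378 and Fabp1 on the plus strand at chr6:71199629-71199826.
Fgf21: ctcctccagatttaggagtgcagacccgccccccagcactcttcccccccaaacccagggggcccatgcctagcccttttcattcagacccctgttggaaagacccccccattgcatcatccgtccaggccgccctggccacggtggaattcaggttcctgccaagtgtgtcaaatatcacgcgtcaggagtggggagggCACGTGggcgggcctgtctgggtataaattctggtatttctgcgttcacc
Pdk4: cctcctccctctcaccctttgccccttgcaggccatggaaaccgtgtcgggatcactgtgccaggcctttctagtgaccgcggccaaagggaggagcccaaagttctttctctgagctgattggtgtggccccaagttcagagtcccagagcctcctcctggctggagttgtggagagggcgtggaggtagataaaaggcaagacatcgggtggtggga
Acot3: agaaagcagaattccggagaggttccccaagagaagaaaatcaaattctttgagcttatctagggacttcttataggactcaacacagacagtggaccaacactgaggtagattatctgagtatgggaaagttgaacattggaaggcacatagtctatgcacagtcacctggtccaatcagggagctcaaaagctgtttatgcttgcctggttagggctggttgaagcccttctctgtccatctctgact
Acot4: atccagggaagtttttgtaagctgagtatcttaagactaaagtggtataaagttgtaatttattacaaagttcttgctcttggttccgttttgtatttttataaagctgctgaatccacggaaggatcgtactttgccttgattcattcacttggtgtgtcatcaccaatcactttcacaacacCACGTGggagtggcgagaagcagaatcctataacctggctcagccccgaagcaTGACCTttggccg
Fabp1: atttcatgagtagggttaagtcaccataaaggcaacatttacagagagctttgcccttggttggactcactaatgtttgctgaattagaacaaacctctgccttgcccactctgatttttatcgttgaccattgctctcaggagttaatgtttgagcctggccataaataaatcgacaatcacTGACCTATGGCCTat

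The RefSeq promoter set held 28 of the 36 genes, and the 250 bases before its RefSeq start, from which positions are counted, were searched on both strands. Cyp4a10, Cyp4a14, Cyp4a12a, Angptl4, Vnn1, Acaa2, Hsd17b4 and Decr1 were not in that set and were not searched. CACGTG, the site of clock and other basic helix-loop-helix factors, was found upstream of Fgf21, with its first base at -50, and of Acot4, at -66. It was found upstream of no other of these 28 genes, while 6.02% of 32851 promoters held it. AGGTCA was found in 7 of the 28 genes (Acadm, Acadvl, Acot4, Cd36, Cpt1a, Creb3l3 and Fabp1) and in 4607 of the 32851 promoters. PPARα-RXR can bind a direct repeat of this half-site with 1 base between the copies (DR1). A relaxed DR1, with any base at the fourth letter of each copy, was found only upstream of Fabp1, with its first base at -67, and in 0.338% of all promoters. The strict DR1 was found in none of the 28 genes and in 0.0335% of all promoters. Of the longer half-sites bound by REV-ERBα and the ROR receptors, TAGGTCA was found upstream of Acadvl and Fabp1 (2.23% of all promoters), where it contains the AGGTCA match, and TGGGTCA upstream of Ehhadh (3.24%). TTATGNAA, a D-box, was found in none of the 28 genes and in 3.07% of all promoters. A match is a description of letters in this window only.

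Between day and night more of the 36 genes changed than between genotypes. In wild type 16 (44.4%) passed between ZT8 and ZT20, 12 higher and 4 lower at ZT20, where 27.7% of all genes did (13.8% higher and 13.9% lower). In the Rev KO mice 15 (41.7%) passed, 11 higher and 4 lower, where 17.5% of all genes did (8.79% higher and 8.67% lower). The median log2 difference over the 36 genes was 0.19 in wild type and 0.12 in the Rev KO mice, beside -0.00021 and 0.00635 over all genes. There were 11 genes called in both genotypes (68.8% of the wild-type and 73.3% of the Rev KO calls), 10 in the same direction and Fgf21 in opposite directions. The interaction also tests whether the day-night difference differed between the genotypes. In edgeR it passed for Fgf21, Pdk4 and Eci2 only. In DESeq2 it also passed for Acot3 (adjusted p = 0.001) and Ehhadh (adjusted p = 0.0244). For the other genes a difference between the genotypes in this respect was not shown with all libraries. The mice of the times did not overlap for 20 genes (55.6%) in wild type, against 42.3% of all genes (21.5% higher and 20.9% lower at ZT20). In the Rev KO mice this held for 19 (52.8%), against 35% of all genes (17.5% higher and 17.6% lower). Hepatocyte markers also moved with time. Their sum was 60773 to 81351 CPM at ZT8 and 103421 to 114682 CPM at ZT20 in wild type, with 3 of 7 called higher. Among the Rev KO mice the sum was 69486 to 97248 CPM and 94495 to 101640 CPM. Bile duct markers summed to 4.83 to 7.44 CPM at ZT8 and 11.9 to 12.3 CPM at ZT20 in wild type, with 2 of 4 called higher, and 1 of 4 was called higher in the Rev KO mice. Of the exocrine pancreas markers, 1 was called lower at ZT20 in wild type and 2 in the Rev KO mice. Of the 8 acute-phase genes, 7 were called lower at ZT20 in wild type. Alignments of reads that align to several places numbered 1.76 to 3.28 per counted read in the ZT8 libraries and 1.24 to 1.67 in the ZT20 libraries, without overlap. The part of these values in the day-night differences was not tested.

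**Figure D3:**
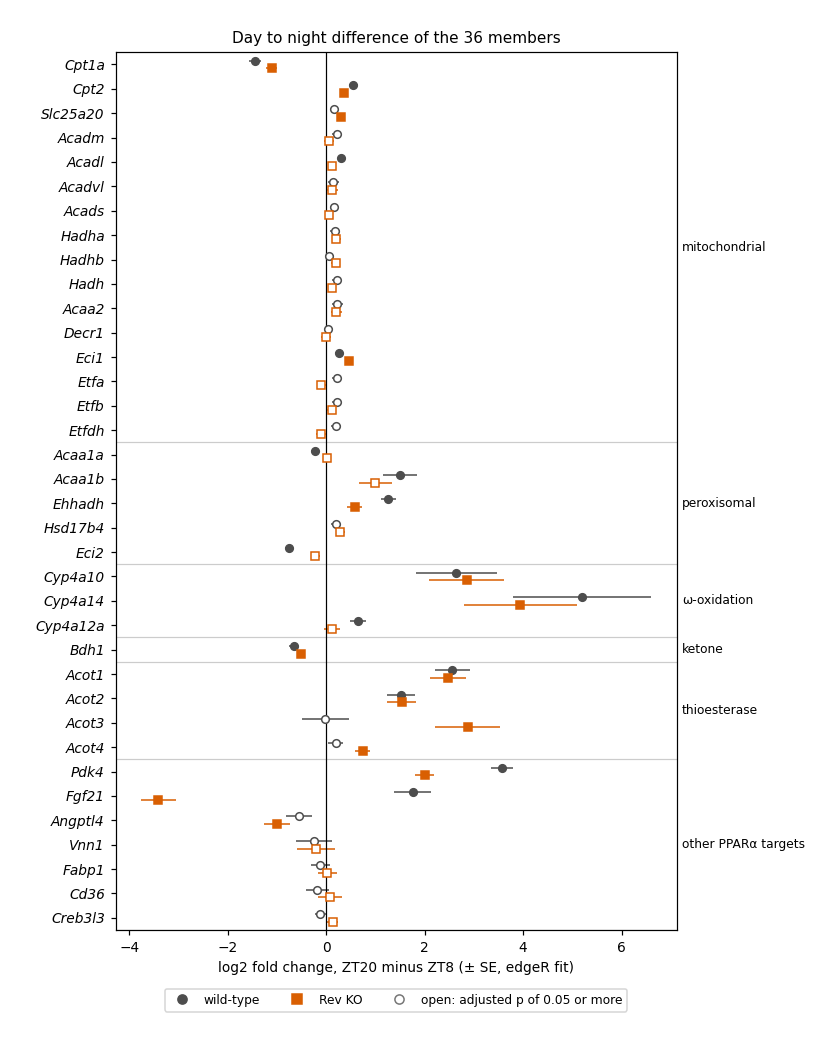
Log2 fold change of ZT20 against ZT8 for the 36 genes, grouped by role (points: edgeR estimate, bars: ± SE; 3 mice per group; grey circles wild type, orange squares Rev KO; filled: adjusted p under 0.05). Cyp4a10, Cyp4a14, Acot1, Acot2 and Pdk4 lie to the right in both genotypes, and Cpt1a and Bdh1 lie to the left in both. Cyp4a12a lies at 0.65 in wild type and 0.11 in the Rev KO mice. Fgf21 lies at 1.75 in wild type and -3.40 in the Rev KO mice.

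Higher at night in both genotypes were Pdk4 (3.57 ± 0.22 in wild type and 2.00 ± 0.19 in the Rev KO mice, adjusted p = 2e-07 and 2.42e-05, edgeR), Acot1, Acot2, Cyp4a10, Cyp4a14, Ehhadh, Cpt2 and Eci1. Acot1 had 5.65, 3.59 and 2.39 CPM at ZT8 and 18.2, 23.4 and 28.1 CPM at ZT20 in wild type (5.895-fold, adjusted p = 0.000656, edgeR). It had 3.12, 3.22 and 4.16 CPM and 13.9, 16.3 and 28.7 CPM in the Rev KO mice (5.58-fold, adjusted p = 0.00187). In both genotypes every ZT20 mouse was above every ZT8 mouse. Acot2 had 1.95, 1.15 and 0.864 CPM at ZT8 and 4.19, 3.67 and 3.76 CPM at ZT20 in wild type. In the Rev KO mice it had 1.298, 1.17 and 1.08 CPM and 2.18, 3.43 and 4.67 CPM, again without overlap (1.52 ± 0.29 and 1.53 ± 0.30, adjusted p = 0.00116 and 0.00286, edgeR). Acot3 passed in the Rev KO mice (2.87 ± 0.66, 7.33-fold, adjusted p = 0.0133) and stood at -0.01 ± 0.47 in wild type. Acot4 passed in the Rev KO mice (0.75 ± 0.15, adjusted p = 0.00374) and stood at 0.19 ± 0.15 in wild type. The Acot3 call was lost without Rev KO ZT8 mouse 1 (adjusted p = 0.0569) or mouse 2 (adjusted p = 0.051), and without Rev KO ZT20 mouse 3 the difference was 2.11 (adjusted p = 0.0113).

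Cyp4a14 had the largest night rise of the 36 genes, 36.6-fold in wild type (5.19 ± 1.40, adjusted p = 0.0258) and 15.4-fold in the Rev KO mice (3.94 ± 1.14, adjusted p = 0.048, edgeR). In the values given above, every ZT20 mouse was above every ZT8 mouse of its genotype. Cyp4a10 rose 6.25-fold and 7.22-fold (adjusted p = 0.0444 and 0.0354). These calls were close to the threshold. Of the 12 fits that left out 1 library, the wild-type call was lost in 8 for Cyp4a10 and 4 for Cyp4a14, and the Rev KO call in 6 and 10. Both wild-type calls were lost without each of the 3 wild-type ZT8 mice, or without wild-type ZT20 mouse 3, taken singly (adjusted p from 0.0661 to 0.13 for both genes). With wild-type ZT8 mice 2 and 3 left out the values were 4.86 for Cyp4a14 (adjusted p = 0.296) and 2.36 for Cyp4a10 (adjusted p = 0.378). In the Rev KO mice, leaving out ZT20 mouse 1, the highest, gave 2.30 for Cyp4a14 (adjusted p = 0.126) and 1.89 for Cyp4a10 (adjusted p = 0.0911). Leaving out ZT8 mouse 3, the highest there, gave 5.04 (adjusted p = 0.0701) and 3.75 (adjusted p = 0.0272). Cyp4a12a rose in wild type (0.65 ± 0.16, adjusted p = 0.00877) and stood at 0.11 ± 0.16 in the Rev KO mice (adjusted p = 0.695). Its wild-type value was 0.23 without ZT8 mice 2 and 3 (adjusted p = 0.336).

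Ehhadh had 187, 138 and 118 CPM at ZT8 and 388, 342 and 334 CPM at ZT20 in wild type (1.26 ± 0.15, 2.397-fold, adjusted p = 4.85e-05, edgeR). In the Rev KO mice it had 172, 186 and 235 CPM and 302, 281 and 304 CPM (0.58 ± 0.15, 1.49-fold, adjusted p = 0.0181), a call lost in 4 of the 12 fits that left out 1 library (adjusted p from 0.0544 to 0.0734). Its interaction was 0.68 ± 0.21 and missed the threshold in edgeR (adjusted p = 0.0822). It passed without wild-type ZT8 mouse 1 (0.88, adjusted p = 0.00288, edgeR) and in DESeq2 with all libraries (adjusted p = 0.0244). Without wild-type ZT8 mice 2 and 3 it was 0.33 (adjusted p = 0.454). Acaa1b had 603, 560.3 and 683 CPM in wild type at ZT20, all above the ZT8 mice (1.501 ± 0.34, 2.83-fold, adjusted p = 0.0102). The Rev KO mice had 317, 409.9 and 648 CPM at ZT20 (1.00 ± 0.33, adjusted p = 0.0736, edgeR). Their rise passed in DESeq2 (adjusted p = 0.0246) and in 1 of the 12 edgeR fits that left out 1 library. Without wild-type ZT8 mice 2 and 3 the wild-type value of Acaa1b was 1.02 (adjusted p = 0.163), whereas Ehhadh still passed (0.91, adjusted p = 0.00173).

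The genes that were lower at night were Cpt1a and Bdh1 in both genotypes, Eci2 and Acaa1a in wild type, and Fgf21 and Angptl4 in the Rev KO mice. Cpt1a fell 2.72-fold in wild type (-1.44 ± 0.12, adjusted p = 4.78e-07) and 2.15-fold in the Rev KO mice (-1.11 ± 0.12, adjusted p = 2.04e-05, edgeR), with the ZT20 mice of both genotypes, 222 to 266 CPM, all far below the ZT8 mice. Bdh1 fell 1.58-fold and 1.43-fold (adjusted p = 6.01e-05 and 0.00122). Eci2 was -0.75 ± 0.09 in wild type (adjusted p = 1.54e-05) and -0.22 ± 0.09 in the Rev KO mice (adjusted p = 0.0988). Acaa1a fell in wild type (-0.24 ± 0.08, adjusted p = 0.0305), a call lost without wild-type ZT8 mouse 2 (adjusted p = 0.126), ZT20 mouse 1 (adjusted p = 0.0632) or ZT20 mouse 2 (adjusted p = 0.118). Angptl4 fell in the Rev KO mice (-0.99 ± 0.27, adjusted p = 0.0328), where its levels were 61.3 to 85.5 CPM at ZT8 and 32.1 to 46.4 CPM at ZT20. That call was lost without Rev KO ZT8 mouse 2 or 3 or Rev KO ZT20 mouse 1 or 2 (adjusted p from 0.0846 to 0.111). In wild type Angptl4 did not pass (adjusted p = 0.155, edgeR), with values of -0.90 to -0.35 over the 12 fits that left out 1 library. It passed there without wild-type ZT20 mouse 3 (-0.90, adjusted p = 0.0101).

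Fgf21 rose at night in wild type (1.75 ± 0.37, 3.37-fold, adjusted p = 0.00233) and fell in the Rev KO mice (-3.40 ± 0.36, 10.6-fold, adjusted p = 1.74e-05, edgeR), each without overlap between times. The wild-type rise did not pass without wild-type ZT8 mice 2 and 3 (1.51, adjusted p = 0.0729), and the fall in the Rev KO mice did (-3.40, adjusted p = 1.84e-05). Without Rev KO ZT20 mouse 2 that fall was -4.04 (adjusted p = 3.95e-05). Of the mitochondrial genes, Cpt2 and Eci1 rose in both genotypes, Acadl in wild type and Slc25a20 in the Rev KO mice, by 0.26 to 0.55 on the log2 scale. The call of Eci1 in wild type was lost in 5 and that of Slc25a20 in 4 of the 12 fits that left out 1 library. Without wild-type ZT8 mice 2 and 3, 8 of the 36 genes (22.2%) passed between times in wild type, against 11.9% of all genes in that fit. Of these, 7 were among the 16 and Fabp1 was added, and among the calls lost were Eci1 (0.12, adjusted p = 0.513), Acadl (0.22, adjusted p = 0.185) and Acot2 (0.98, adjusted p = 0.0869).

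Mice of a group differed together. In wild type at ZT8, mouse 1 was the highest of the 3 for 25 of the 36 genes and mouse 3 the lowest for 28, where over all tested genes these shares were 38.4% and 37.3%. Among the Rev KO mice at ZT8, mouse 1 was the lowest for 26 and mouse 3 the highest for 25, against 38.2% and 37.6% of all genes. The summed acute-phase level was lowest in wild-type mouse 1 and highest in mouse 3, while the acute-phase level of the Rev KO mice at ZT8 spanned only 2170 to 2340 CPM. These are values of 3 mice per group, and the part of the acute-phase state in the order was not tested. The highest mouse was over 2 times the lowest for 6 genes in wild type and 3 in the Rev KO mice at ZT8, and for 4 and 7 at ZT20. Cyp4a14 was among them in all 4 groups.

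**Figure D4:**
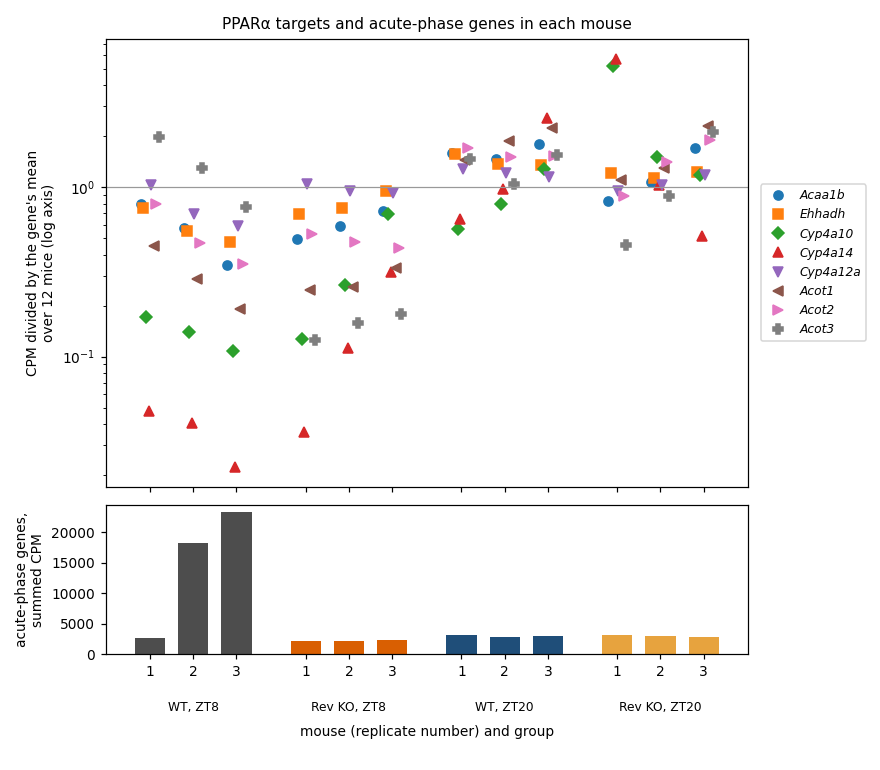
Upper panel: CPM of 8 genes in each mouse divided by the mean of that gene over the 12 mice (log axis); lower panel: summed CPM of 8 acute-phase genes in the same mice (bars from 0). The 8 genes were picked by hand from the 36. In the 3 wild-type mice at ZT8 all 8 are highest in mouse 1 and lowest in mouse 3, while the acute-phase sum is 2628, 18183 and 23262 CPM. Over the 36 genes mouse 1 is highest for 25 and lowest for 6. Pdk4, Cpt1a and Vnn1, not shown here, are lowest in mouse 1 and highest in mouse 3. In the Rev KO mice at ZT20 Cyp4a10 and Cyp4a14 are highest in mouse 1.

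Beside the 36 genes, 72 further genes of the pathway were read, of which 70 were tested. Between genotypes at ZT8, 10 of the 70 (14.3%) passed, 6 higher and 4 lower, at ZT20 1 (1.43%) and in the interaction 6 (8.57%), against the 8.45%, 3.63% and 5.88% of all genes. By subgroup at ZT8, 3 of 10 receptors and coregulators passed, and 2 of 10 genes of fatty acid uptake and activation. Of the further genes by organelle and product, 1 of 10 mitochondrial, 2 of 15 peroxisomal, 1 of 8 ketone body and 1 of 6 other PPARα-responsive genes passed. None of the 3 genes that set malonyl-CoA, the inhibitor of CPT1, and none of 8 further ω-oxidation genes passed in edgeR, each with 1 at an unadjusted p under 0.05 and 1 in DESeq2. Between times, 28 (40%) passed in wild type, 19 higher and 9 lower at ZT20, and 21 (30%) in the Rev KO mice, 14 higher and 7 lower, against 27.7% and 17.5% of all genes.

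Ppara itself did not pass between genotypes with all libraries. At ZT8 it had 207, 222 and 240.0 CPM in wild type and 132, 172 and 221 CPM in the Rev KO mice, with overlap (-0.35 ± 0.16, adjusted p = 0.2, edgeR). Without Rev KO ZT8 mouse 3, the highest of that group, the difference was -0.55 and passed (adjusted p = 0.0191), and without wild-type ZT8 mice 2 and 3 it was -0.25 (adjusted p = 0.755). It was lower at ZT20 in both genotypes, at 114, 107 and 124 CPM in wild type (-0.96 ± 0.16, adjusted p = 0.000756, edgeR). The Rev KO mice had 120.5, 104 and 92.1 CPM at ZT20 (-0.73 ± 0.16, adjusted p = 0.0076). Ppard, which encodes the related receptor PPARδ, had 7.800, 8.77 and 9.202 CPM in wild type and 15.9, 14.3 and 19.00 CPM in the Rev KO mice at ZT8 (0.94 ± 0.16, adjusted p = 0.00227). The ZT20 values were 73.4, 60.7 and 46.6 CPM and 46.1, 46.6 and 45.3 CPM. Its Rev KO mice were all higher in the light phase. In the dark phase the highest Rev KO mouse lay just under the lowest wild-type mouse, and the difference did not pass (-0.39 ± 0.14, adjusted p = 0.171). Without wild-type ZT20 mouse 3 this difference was -0.54 and passed (adjusted p = 0.0158, edgeR). The interaction was 1.33 ± 0.21 (adjusted p = 0.00189, edgeR). The coactivator genes Ppargc1b (-0.92 ± 0.15, adjusted p = 0.00166) and Ppargc1a (-0.71 ± 0.14, adjusted p = 0.00525) were lower in the Rev KO mice at ZT8. The interaction passed for Ppargc1b (-0.89 ± 0.23, adjusted p = 0.0311). Without wild-type ZT8 mice 2 and 3 the ZT8 values were 1.07 for Ppard (adjusted p = 0.0551), -0.69 for Ppargc1b (adjusted p = 0.118) and -0.54 for Ppargc1a (adjusted p = 0.198).

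Hacl1, the peroxisomal lyase of α-oxidation, had 148, 145 and 136 CPM in wild type and 342, 385 and 341 CPM in the Rev KO mice at ZT8. The gap was wide and without overlap (1.32 ± 0.12, 2.49-fold, adjusted p = 8.33e-06, edgeR). At ZT20 it had 625, 553 and 540.5 CPM and 385, 444 and 567 CPM (-0.30 ± 0.12, adjusted p = 0.231), and the interaction was 1.62 ± 0.17 (adjusted p = 3.42e-05). Without Rev KO ZT20 mouse 3 the ZT20 difference was -0.47 and passed (adjusted p = 0.0239, edgeR). Slc16a1, a transporter of ketone bodies and lactate, had 36.01, 39.2 and 41.1 CPM in wild type and 70.1, 73.1 and 93.7 CPM in the Rev KO mice at ZT8 (1.03 ± 0.12, 2.04-fold, adjusted p = 9.91e-05). Its levels at ZT20 were 90.5, 81.6 and 69.4 CPM and 86.9, 86.7 and 76.5 CPM, and its interaction was 0.98 ± 0.16 (adjusted p = 0.00245). Both ZT8 differences held without wild-type mice 2 and 3 (1.27 for Hacl1, adjusted p = 0.00309, and 1.13 for Slc16a1, adjusted p = 0.00678). The acyl-CoA synthetase Acsl1 (0.52) and the branched-chain acyl-CoA dehydrogenase Acadsb (0.39) were also higher at ZT8. The carnitine transporter Slc22a5 (-0.63) and the lipid droplet gene Cidec (-1.38) were lower. The adjusted p of these 4 genes ran from 0.00812 to 0.0118 in edgeR, and none passed without wild-type mice 2 and 3.

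Oxct1, the enzyme with which other tissues use ketone bodies, was the only pathway gene past the threshold at ZT20. It had 6.75, 6.94 and 7.43 CPM in wild type and 11.9, 10.8 and 9.43 CPM in the Rev KO mice (0.61 ± 0.14, adjusted p = 0.0296, edgeR). This call was lost without any of 5 of the 6 ZT20 mice taken singly (adjusted p from 0.0578 to 0.124). Crat, carnitine acetyltransferase, passed the interaction but not the genotype difference at either time (0.82 ± 0.20, adjusted p = 0.0311). Of the 12 fits that left out 1 library, its interaction was lost in 8. Among these was the fit without wild-type ZT8 mouse 1 (adjusted p = 0.0563). The interaction of Ppargc1b was also lost in 8 of them.

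**Figure D5:**
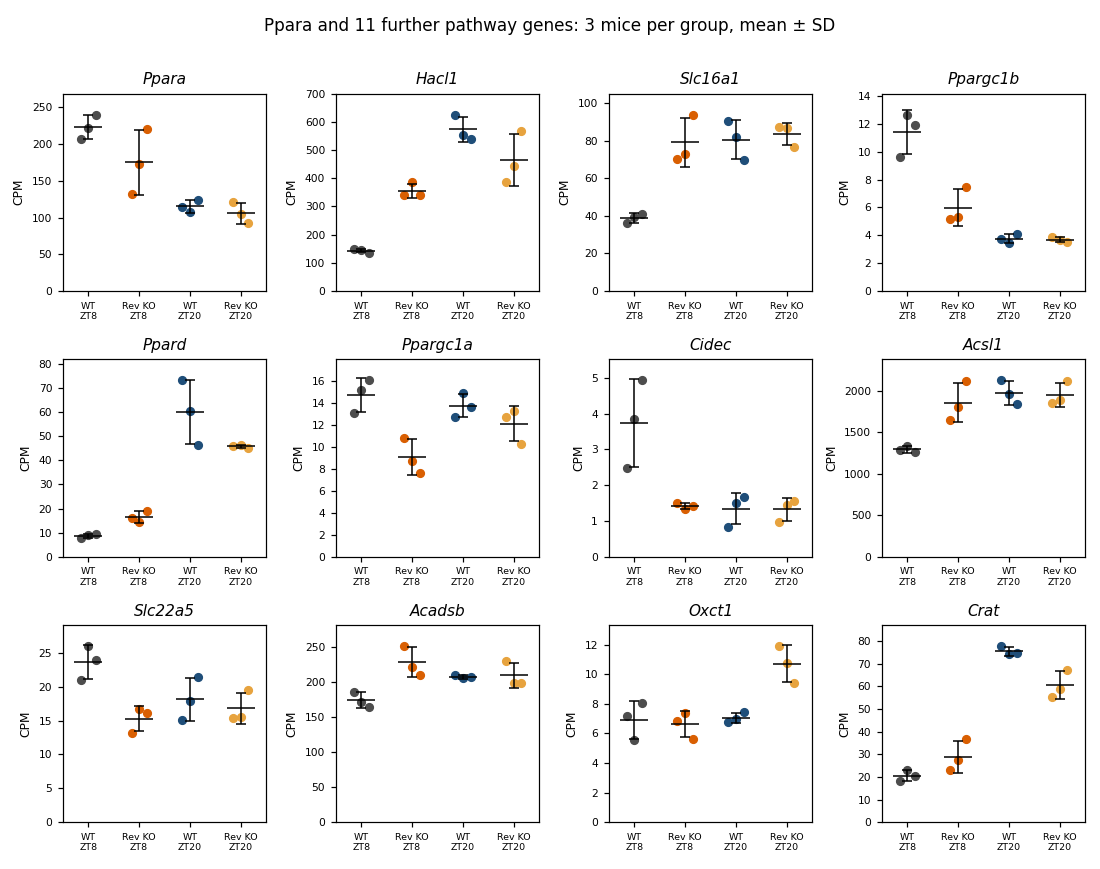
CPM of Ppara and 11 further pathway genes (points: single mice in the order of their replicate numbers; bars: mean ± SD, n = 3 per group; y axes start at 0). In the Hacl1, Slc16a1 and Ppard panels the Rev KO mice at ZT8 lie above all wild-type mice at ZT8, with 143 ± 6.31 CPM, 356 ± 25.1 CPM, 573 ± 45.8 CPM and 465 ± 92.9 CPM for Hacl1 in the order of the panel.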

How the data were processed

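Liver RNA of 12 samples was read as 75-base poly(A) RNA-seq. The authors aligned reads to mm10 with TopHat, kept unique alignments and counted them per gene name with HTSeq in union mode without strand, at a minimum quality of 10. The deposited values are raw counts per gene, 1 file per sample. The annotation release the authors used is not given in the sources used here, and rows that name no gene were left out of library sizes.

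Groups came from the labels. Counts were filtered with filterByExpr, scaled by TMM and fitted in edgeR 4.0.16 (R 4.3.3) as 4 group means with robust quasi-likelihood tests of 5 contrasts, at a Benjamini-Hochberg adjusted p under 0.05. The fit was tested on simulated data. An exact permutation test of 3 against 3 cannot go below 0.1 and was not used. DESeq2 1.42.0, other scalings and filters, a replicate block and left-out libraries were alternatives. Leaving out both wild-type ZT8 mice with high acute-phase genes leaves that group 1 mouse, assumed to vary like the others.

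The 36 genes and the pathway lists were chosen with earlier results of these data known. Mouse-by-mouse values are given for genes past the threshold between genotypes or in the interaction, and for those past it between times with an absolute log2 change of 1 or more. Further pathway genes are the 12 with the smallest adjusted p between genotypes or in the interaction, plus Ppara, of which 1 is not reported here. Values of a few other members were given after they were seen. Gene positions and shared 75-base windows are from GENCODE M21 on GRCm38.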

Additional observations from a re-analysis of the deposited data

Results flagged for a closer look

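The genotype difference differed between ZT8 and ZT20 for 3 of the 36 genes, by the edgeR interaction term. The interaction on the log2 scale was 5.16 for Fgf21 (adjusted p = 2.05e-05), with the Rev KO mice all higher at ZT8 and all lower at ZT20. It was 1.57 for Pdk4 (adjusted p = 0.00754), with all Rev KO mice higher at ZT8 and overlap at ZT20. It was -0.53 for Eci2 (adjusted p = 0.0176), with all Rev KO mice lower at ZT8 and overlap at ZT20. Groups of 3 mice are too small for a test of single outlying mice.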

How the results depend on the processing

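Of the 36 genes, 10 passed between genotypes at ZT8, 4 with wild-type ZT8 mice 2 and 3 left out together (an alternative known from earlier results of these data), 6 in a fit of only the 6 samples compared, and 4 to 13 with 1 library left out. Of all genes, 8.45%, 2.29%, 5.59% and 3.68% to 12.3% passed in these fits. At ZT20 1 gene passed, 2 in DESeq2 (Acadl added), 2 with the replicate block (Angptl4 added), 0 when 10 reads were required in every sample, which removes Fgf21 from the test, and 1 to 1 with 1 library left out. Of all genes, 3.63% passed at ZT20, 4.87% in DESeq2 and 3.31% with the replicate block. With 10 reads in every sample 3.45% passed, and 1.62% to 4.46% with 1 library left out. In the interaction 3 of the 36 passed, 5 in DESeq2 (Acot3 and Ehhadh added) and 2 to 5 with 1 library left out. Of all genes, 5.88%, 7.62% and 3.35% to 8.56% did. Between times, 27.7% of all genes passed in wild type, or 19.5% to 28.5% with 1 library left out. In the Rev KO mice 17.5% did, or 10.6% to 19.3%. Between times 16 passed in wild type, 8 without wild-type ZT8 mice 2 and 3 and 12 to 19 with 1 library left out, and 15 in the Rev KO mice, 9 to 16 with 1 library left out.

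Of the 70 further pathway genes, 10 passed at ZT8, 17 in DESeq2, 4 without wild-type ZT8 mice 2 and 3 and 7 to 22 with 1 library left out. At ZT20 1 passed, 2 without those mice, 3 with only the 6 samples compared and 0 to 2 with 1 library left out. In the interaction 6 passed and 3 to 11 with 1 library left out. Between times 28 passed in wild type, 14 without those mice and 19 to 33 with 1 library left out, and 21 in the Rev KO mice, 13 to 23 with 1 library left out. Cyp4a12b turned direction without wild-type ZT8 mice 2 and 3, to -0.84 at ZT8 (adjusted p = 0.00698, edgeR) and -0.80 in the interaction (adjusted p = 0.0282). The cause of these changes was not tested beyond the smaller number of samples. Of all genes, 8.45% passed at ZT8, 10.4% in DESeq2 and 3.68% to 12.3% with 1 library left out. At ZT20 3.63% passed, 4.38% with only the 6 samples compared and 1.62% to 4.46% with 1 library left out. The interaction was passed by 5.88% (3.35% to 8.56%). Between times 27.7% (19.5% to 28.5%) passed in wild type and 17.5% (10.6% to 19.3%) in the Rev KO mice.

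With the replicate number as a block, the counts for the 36 genes were 10, 2, 3, 16 and 13 over the 5 contrasts. Of all genes, 8.35%, 3.31%, 5.74%, 26.8% and 16.6% passed in that fit. With the block Bdh1 lost its call at ZT8 while Etfa gained one. The labels do not say that a number marks a shared litter or day. Over 18 pairs of same-numbered samples the mean correlation of deviations was -0.0183 (1 pair above 0.1). Over 36 pairs of differently numbered samples it was 0.00891 (0 above 0.1). A mean over all genes cannot show whether a litter or day touched some of them, and this was not tested. Over all alternatives, 3582 values of the 36 genes kept their side of the threshold, 114 lost and 33 gained a call. None past the threshold turned direction. Values past it in neither fit could change sign, as 359 of 8568 did over the 36 genes and the further pathway genes together. Depth limits Acot3, Fgf21 and Cyp4a14, whose lowest groups held few reads.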
